A study of Mus musculus with 10 samples.

Results

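Bone morphogenetic protein (BMP) signalling was followed through 10 genes, the ligand genes Bmp2, Bmp4 and Bmp7, the inhibitor-of-DNA-binding genes Id1, Id2, Id3 and Id4, and the feedback inhibitor genes Smad6, Smad7 and Bambi. They were chosen by symbol, and all 10 were found among the 19333 genes of the precursor cell table and among the 22064 genes of the sorted cell tables, which together list 26764 genes. RNA sequencing covered 10 mouse libraries. 3 came from cultured oligodendrocyte precursor cells (OPCs), the cells that mature into myelinating oligodendrocytes, of Olig2-Cre:Apc-fl/fl mice, and 3 from OPCs of Apc-fl/fl littermates, called wild type here, which carry the floxed alleles without Cre. All 6 cultures were purified by immunopanning, a selection on antibody-coated plates, and grown for 3 days with the growth factor PDGFAA. Olig2-Cre acts in any cell that has expressed Olig2, so it is not restricted to OPCs. 1 library held CD4+ cells labelled Th1, and 3 held CD11b+Gr-1+NK1.1+ cells labelled cytotoxic macrophage, sorted from spinal cord 18 days after induction of experimental autoimmune encephalomyelitis (EAE), a mouse model of multiple sclerosis. Each of these 4 libraries came from Pdgfra-CreER:Apc-fl/fl mice, so the sorted cells include no Apc-intact group. The age of the mice and whether CreER was induced are not stated by any source at hand.

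BMP ligands bind paired receptor kinases that phosphorylate Smad1, Smad5 and Smad9, which enter the nucleus with Smad4 and switch on a small set of genes, the Id genes among them. Id proteins hold a helix-loop-helix domain and no DNA-binding region, and they bind E proteins and keep these from pairing with lineage factors such as Olig1 and Olig2. In the oligodendrocyte lineage BMP signalling is known to hold back differentiation and to favour astrocytes, in parallel with Wnt signalling, the pathway that Apc restrains. Smad6, Smad7 and Bambi are themselves BMP targets that damp the pathway.

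Stretches before the RefSeq transcript start of 3 of the genes are shown, that of Bmp4 because this ligand differed between the OPC genotypes, and those of Id2 and Id4 because they alone among the 5 genes matched in a RefSeq promoter table (Bmp4, Id2, Id3, Id4 and Smad6) held a GC-rich Smad element, GGCGCC, marked in capitals. The sequences are RefSeq GRCm38.p6, written 5′ to 3′ on the gene's strand. The Bmp4 stretch lies at chr14:46390670-46390919 on the minus strand, the Id2 stretch, left after annotated exons were removed, at chr12:25096254-25096342 on the minus strand, within the wider Id2 gene of the GENCODE annotation, and the Id4 stretch at chr13:48260866-48261115 on the plus strand.
Bmp4: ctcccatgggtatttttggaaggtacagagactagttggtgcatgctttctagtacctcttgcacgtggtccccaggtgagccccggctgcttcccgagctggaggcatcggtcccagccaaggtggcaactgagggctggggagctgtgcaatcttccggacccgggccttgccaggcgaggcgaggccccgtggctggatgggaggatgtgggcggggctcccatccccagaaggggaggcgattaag
Id2: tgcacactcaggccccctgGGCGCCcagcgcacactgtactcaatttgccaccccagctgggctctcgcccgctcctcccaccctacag
Id4: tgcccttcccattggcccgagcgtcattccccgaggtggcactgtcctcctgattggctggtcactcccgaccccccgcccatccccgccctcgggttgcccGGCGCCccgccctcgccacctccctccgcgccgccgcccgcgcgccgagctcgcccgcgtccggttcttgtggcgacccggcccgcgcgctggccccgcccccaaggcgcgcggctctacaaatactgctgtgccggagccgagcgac
The element starts 231 bases before the RefSeq start in Id2 and 148 bases before it in Id4, and 9.59% of the 32851 promoters of that table hold it within 250 bases of the start, so its presence is common. A palindromic Smad box, GTCTAGAC, occurred in 0.167% of promoters and a TCF/LEF core, CTTTGAT or ATCAAAG on the other strand, in 3.21%, and neither was found in the windows of the 5 matched genes. These windows were rich in G and C, at 62.8% for Id2 and Id3, 63.2% for Bmp4, 66.8% for Smad6 and 75.6% for Id4, against a median of 52.4% over all promoters. The Id2 window holds 89 bases, and the Id3 window 0, before the first annotated exon base of the gene. The values of Id2 and Id3 thus include exon sequence.

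The OPC genotypes are compared in the authors' deposited table, which holds a mean of normalized counts over all libraries, a log2 fold change and its standard error (SE), and no value per library, so the depth and the spread of the single cultures are unknown. The authors' deposited table does not name the numerator of its fold changes. The sign was therefore read from the Wnt targets Notum, Sp5, Lef1 and Axin2, taken to be higher without Apc, and every direction below holds on that reading only. In the same authors' deposited table all 5 OPC markers were present, at means between 1046 and 13050 normalized counts, and so were 6 of 6 neuronal markers, between 8117 and 122300, and 6 of 6 astrocyte markers, between 410.3 and 26750. Markers of other cell types thus stood beside those of OPCs, and fewer cells of a type and less RNA per cell cannot be told apart in such bulk values. In the sorted cells, 7 neutrophil markers together reached between 423100 and 426300 TPM (reads per transcript length, scaled to the same total in each library) in the macrophage libraries, against 22910 to 23150 TPM for 7 macrophage and microglia markers. Of the latter sum, Lyz2 alone gave 22560 to 22810 TPM in the macrophage libraries. The library labelled Th1 had no read of the T cell markers Cd3e, Cd3d, Cd3g, Cd4 and Cd2, and Lck was the only listed T cell marker above 3 reads in it. Its 6 T cell markers summed to 66.3 TPM, its 7 neutrophil markers to 24370 TPM and its 7 macrophage and microglia markers to 11110 TPM. The neutrophil markers Ly6g and Mpo had no read in it. Of the macrophage and microglia sum in the library labelled Th1, Lyz2 alone gave 11006 TPM, while Cd68, Aif1 and Mertk stood at 1.68, 1.57 and 0.07 TPM. Adgre1, which encodes the macrophage antigen F4/80, stood at 81.6 TPM in it, against 7.46 to 7.81 TPM in the macrophage libraries. The library labelled Th1 held 3051730 estimated reads, while the macrophage libraries held 23174908, 23564215 and 23474168. Whether the macrophage libraries came from separate animals is not stated, so SDs and p-values reflect the spread between those 3 libraries alone, which may be technical.

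In OPC cultures the question was whether the BMP arm differed after loss of Apc. Bmp4 fell and Bmp7 rose in the Apc-deleted cultures, while Bmp2, the 4 Id genes and the 3 feedback inhibitor genes did not pass an adjusted p threshold of 0.05 there, all taken from the authors' deposited table. The 2 called members compare with 106 of 19333 genes called in that table, or 0.548%, made up of 76 genes that were higher (0.393%) and 30 that were lower (0.155%) in Apc-deleted cultures. Among the 10 members the authors' deposited table has 6 above and 4 below 0, with a median log2 fold change of 0.07, against a median of 0.00 over all genes. Before adjustment 3 of the 10 had a p under 0.05 there, namely Bmp4, Bmp7 and Id3, against 701 of all 19333 genes.

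Bmp4, a ligand that OPCs and astrocytes can both secrete (chr14:46383520-46390669, minus strand, GRCm38), showed a log2 fold change of -0.83 ± 0.18 (SE, 95% interval -1.19 to -0.47), listed at adjusted p = 0.00243 in the authors' deposited table. Its mean there was 253.8 normalized counts, and mean and fold change together give 182.7 normalized counts in Apc-deleted and 325.0 in wild-type cultures if the genotypes weigh equally. This is a 1.78-fold lower level in the Apc-deleted cultures. 2 annotated genes, Gm15217 and Gm15222, overlap Bmp4 on the other strand, and no source at hand says whether the counting used strand, so reads of Bmp4 and of these partners cannot be told apart.

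Bmp7, a ligand of the subgroup that also holds Bmp5 and Bmp6 (chr2:172868012-172940321, minus strand, GRCm38), moved the other way, with a log2 fold change of 0.94 ± 0.25 (SE, 95% interval 0.44 to 1.44), listed at adjusted p = 0.0421 in the authors' deposited table. The fold change and its mean of 702.9 normalized counts in the authors' deposited table give 924.7 in Apc-deleted and 481.0 in wild-type cultures, a 1.92-fold difference. That SE was 1.83 times the median SE of the 200 genes nearest in mean level, whereas the SE of Bmp4 was 1.08 times it. The 2 called ligands thus moved in opposite directions by similar folds, and the adjusted p of Bmp7 lay close to the threshold. Bmp2 (chr2:133552159-133562885, plus strand, GRCm38), a ligand close in sequence to Bmp4, showed a log2 fold change of 0.07 ± 0.25 (SE, 95% interval -0.42 to 0.57) at a mean of 91.3 normalized counts in the authors' deposited table. With an SE of that size a change had to reach 1.89-fold to be called, about the size seen for Bmp7.

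**Figure D1:**
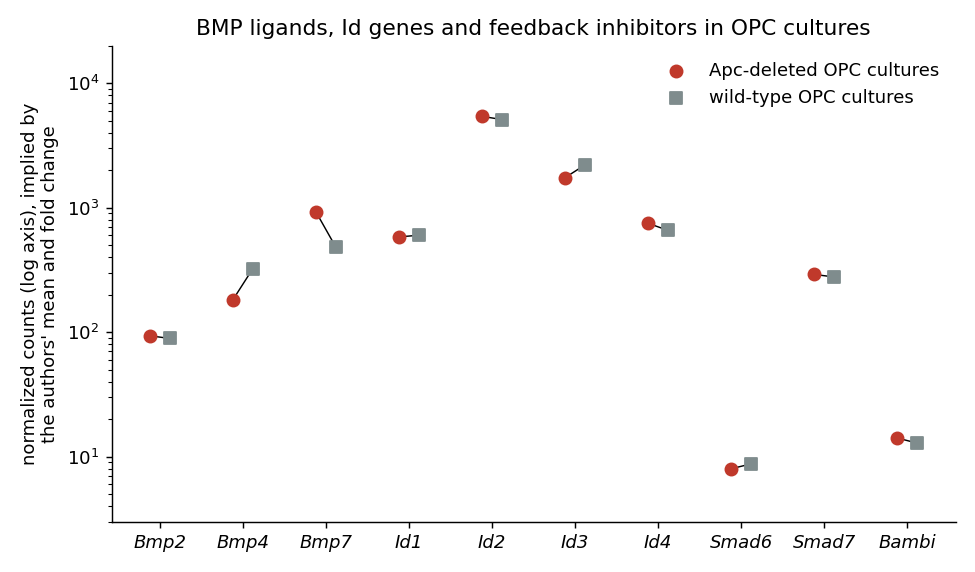
Level of each of the 10 genes in Apc-deleted and wild-type OPC cultures, as normalized counts on a log axis, derived from the mean and fold change in the authors' deposited table; no error is drawn because the table has no value per library. Bmp7 lies at 924.7 in Apc-deleted against 481.0 in wild-type cultures and Bmp4 at 182.7 against 325.0, while the pairs of the other genes lie close together.

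The 4 Id genes, whose products sequester E proteins, spanned 592.7 normalized counts for Id1 to 5276 for Id2 in the mean of the authors' deposited table. Id2 (chr12:25093799-25097140, minus strand) had derived levels of 5431 normalized counts in Apc-deleted and 5121 in wild-type cultures, and its log2 fold change of 0.08 ± 0.13 (SE) in the authors' deposited table had a 95% interval of -0.17 to 0.34. Id1 (chr2:152736251-152737410, plus strand), often used as the direct readout of BMP signalling, had derived levels of 583.6 normalized counts in Apc-deleted and 601.8 in wild-type cultures. Its log2 fold change of -0.04 ± 0.15 (SE) in the authors' deposited table had a 95% interval of -0.34 to 0.25. For Id1 and Id2, a 2-fold change in either direction therefore lay outside the interval, while smaller changes lay within it.

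Id3 (chr4:136143497-136145755, plus strand) had the largest Id difference, a log2 fold change of -0.34 ± 0.14 (SE, 95% interval -0.62 to -0.06) in the authors' deposited table. Its derived levels were 1748 normalized counts in Apc-deleted and 2213 in wild-type cultures. Its unadjusted p was 0.0182 and its adjusted p 0.939 in the authors' deposited table, so the difference did not pass over all genes. Id4 (chr13:48261228-48266026, plus strand), an Id gene expressed in neural progenitors that is known to hold back oligodendrocyte maturation, showed a log2 fold change of 0.19 ± 0.18 (SE, 95% interval -0.17 to 0.55) in the authors' deposited table. Id4 overlaps A330033J07Rik and Gm49291 on the other strand, with the same limit on strand as for Bmp4. Id1 and Id3 thus lay below 0 and Id2 and Id4 above it, and none of these differences was called.

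None of the feedback inhibitors was called, and precision differed widely among them. Smad7 (chr18:75367529-75395935, plus strand), an inhibitory Smad that acts on both the BMP and the TGF-beta receptors, had a mean of 284.7 normalized counts and a log2 fold change of 0.07 ± 0.16 (SE, 95% interval -0.24 to 0.37) in the authors' deposited table. Smad6 (chr9:63953076-64022059, minus strand), the inhibitory Smad that acts mainly on the BMP branch, averaged 8.36 normalized counts with a log2 fold change of -0.13 ± 0.75 (SE) in the authors' deposited table. Bambi (chr18:3507923-3516404, plus strand), a pseudoreceptor that lacks a kinase domain, averaged 13.5 normalized counts with a log2 fold change of 0.14 ± 0.55 (SE) in the authors' deposited table. At these SEs a change had to reach 6.63-fold for Smad6 and 3.99-fold for Bambi to be called, against 1.48-fold for Smad7. Smaller changes of Smad6 and Bambi could not be called at these SEs.

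**Figure D2:**
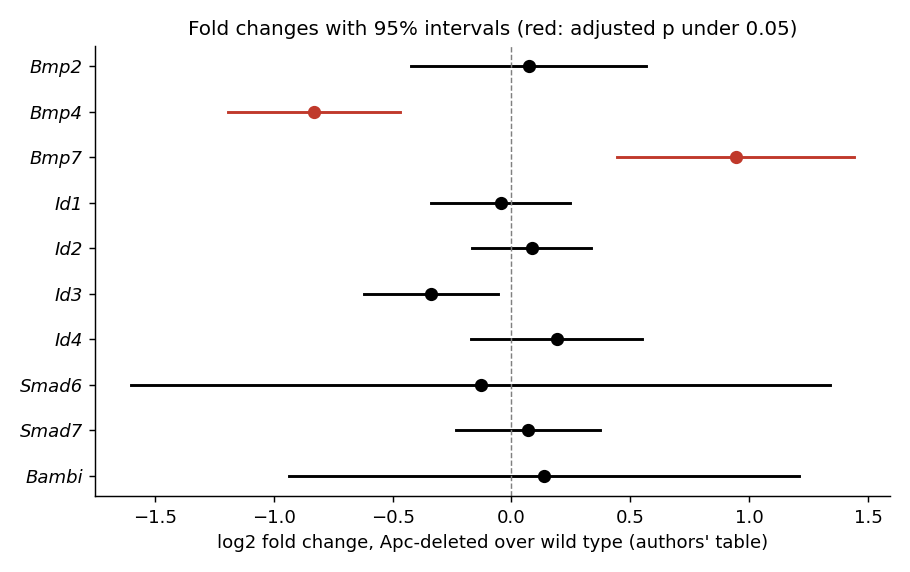
Log2 fold change of each gene, Apc-deleted over wild type, in the authors' deposited table, with 95% intervals computed from the table's SE. The intervals of Bmp4 (-1.19 to -0.47) and Bmp7 (0.44 to 1.44) lie on opposite sides of 0, and those of Smad6 and Bambi are the widest.

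Levels of different genes were compared per kilobase of exon, as the mean of both genotypes in the authors' deposited table divided by the summed length of the gene's exons. On this scale Id2 stood at 2164 normalized counts per kilobase, Id3 at 1106, Id1 at 511.0 and Id4 at 183.0, so Id2 made up 54.6% of the family, Id3 27.9%, Id1 12.9% and Id4 4.62% in the authors' deposited table. The ligands followed with 174.9 normalized counts per kilobase for Bmp7, 112.9 for Bmp4 and 25.7 for Bmp2 in the authors' deposited table. Smad7 stood at 63.0, Bambi at 2.66 and Smad6 at 2.61 on that scale. Without values per library the spread around these levels is unknown, and Bmp7 and Id4, like Bambi and Smad6, changed places when the longest transcript gave the length.

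The rest of the pathway was described with 70 further genes listed by role, 65 of which were in the authors' deposited table. Of these, 32 lay above and 33 below 0, and 1 was called higher and 0 lower, against 0.548% of all genes called either way in the authors' deposited table. Before adjustment 6 of the 65 had p under 0.05, against 701 of all 19333 genes in the authors' deposited table, with a median log2 fold change of 0.00 as over all genes. The called gene was Sostdc1, which encodes a secreted protein that binds BMP ligands and also a Wnt co-receptor. It rose by 0.95 ± 0.25 (SE) on the log2 scale, listed at adjusted p = 0.0268 in the authors' deposited table. Its derived levels were 195.7 normalized counts in Apc-deleted and 101.1 in wild-type cultures. Among the 12 secreted antagonists 8 lay above 0 in the authors' deposited table, and besides Sostdc1 the smallest p was that of Fst, the activin and BMP trap follistatin, with a log2 fold change of 0.77 ± 0.30 (SE) and an adjusted p of 0.683. Noggin (Nog), which captures Bmp4 and Bmp7, had a log2 fold change of 0.01 ± 0.28 (SE) in the authors' deposited table.

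None of the 9 other BMP-type ligand genes and none of the 7 receptor genes was called in the authors' deposited table. The receptors lay between -0.13 and 0.14 on the log2 scale there, at means of 122.2 to 2128 normalized counts, so receptor transcripts were present in the cultures. None of the 4 Smad genes that carry the signal was called, and the smallest p among them was that of Smad5 with a log2 fold change of 0.22 ± 0.10 (SE), which the authors' deposited table lists at adjusted p = 1. Rgmb, a membrane-anchored co-receptor of BMP ligands, had a log2 fold change of 0.99 ± 0.33 (SE) in the authors' deposited table, which did not pass at an adjusted p of 0.312. Of 7 other BMP targets, 4 lay above and 3 below 0 in the authors' deposited table and none was called. Of the 6 basic helix-loop-helix genes whose products meet Id proteins, 5 lay above 0 with a median of 0.29 in the authors' deposited table and none was called. Tcf12, an E protein, had a log2 fold change of 0.41 ± 0.21 (SE), which the authors' deposited table lists at adjusted p = 1. For Olig2 the authors' deposited table lists -0.03 ± 0.25 (SE). None of 6 intracellular brakes and none of 10 genes of the TGF-beta and activin arm was called either.

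**Figure D3:**
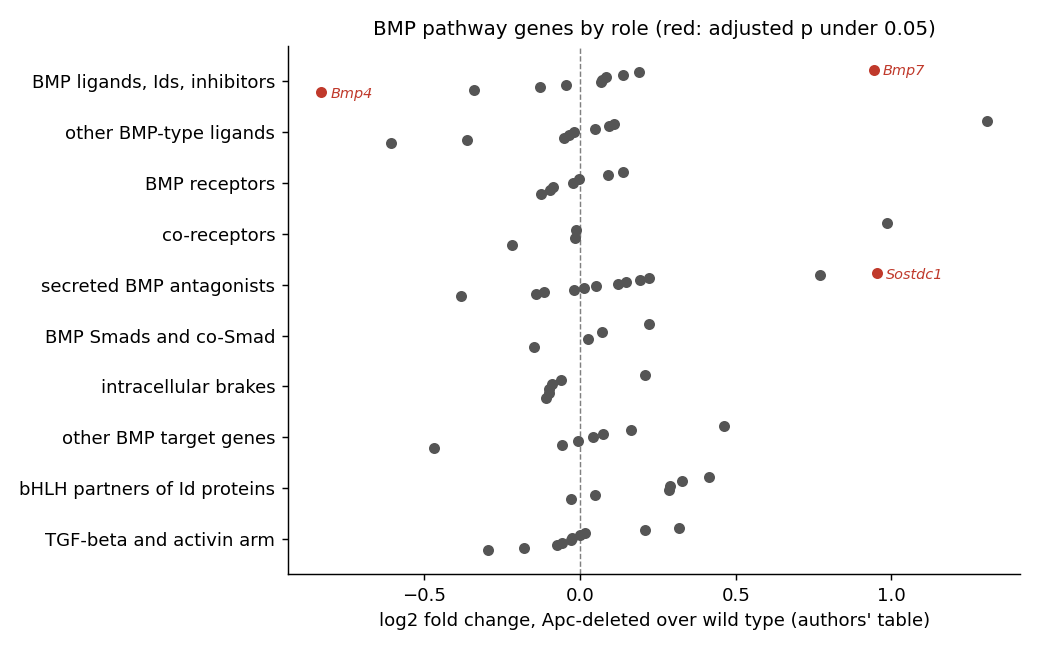
Log2 fold change, Apc-deleted over wild type, of every gene by role in the authors' deposited table, with called genes marked. Bmp4, Bmp7 and Sostdc1 are the 3 called genes, and the medians of the role lists lie between -0.10 and 0.29.

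Cell type markers moved beside these values. All 7 macrophage and microglia markers lay above 0 in the authors' deposited table, with a median log2 fold change of 0.40. The 2 called were Lyz2, a lysozyme gene of myeloid cells, with 4.33 ± 0.96 (SE), and Cd68, a lysosomal gene of phagocytes, with 1.54 ± 0.36 (SE). Their SEs were 7.12 and 1.98 times the median SE of the 200 genes nearest in mean level. Mertk (0.0015), Csf1r (0.0096) and Cx3cr1 (0.071) lay close to 0, and Adgre1 (1.87) and Aif1 (0.40) lay higher without being called. The list thus did not rise as a whole. Of the 5 OPC markers 4 lay above 0 in the authors' deposited table and none of these was called, with 0.37 ± 0.20 (SE) for Pdgfra and 0.25 ± 0.20 (SE) for Cspg4 as the highest. The other OPC marker, Gpr17, a receptor of precursors committed to differentiate, fell to a derived 2713 normalized counts in Apc-deleted cultures, against 6041 in wild type, a log2 fold change of -1.16 ± 0.15 (SE) at adjusted p = 2.14e-10 in the authors' deposited table. All 5 oligodendrocyte, all 6 astrocyte, all 6 neuronal and all 6 endothelial markers lay below 0 in the authors' deposited table and none was called. The part of any of these cell types in the changes of Bmp4 and Bmp7 was not tested.

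In the sorted cells the comparison of the library labelled Th1 with the macrophage libraries asked which members of the BMP arm the infiltrating cells express. Different Id genes led in the library labelled Th1 and in the macrophage libraries, and given the markers above this was not read as a difference between cell types. Id3 was high and Id1 and Id2 near 0 in the library labelled Th1, whereas Id2 led, followed by Id1, in the macrophage libraries. Bambi was read in the macrophage libraries alone, and the ligand genes were at or near 0 in all 4 libraries. edgeR's quasi-likelihood test across 11447 genes tested 6 of the 10 members, and at a Benjamini-Hochberg adjusted p under 0.05 and a fold of at least 4 it called 1 higher (Id3) and 3 lower (Id1, Id2 and Bambi) in the library labelled Th1. Of all genes tested 68.2% were called, 13.7% higher and 54.6% lower, so a call by itself sets the members little apart from the other genes. Genes higher in the library labelled Th1 made up 20.1% of those called here and 36.9% with DESeq2 size factors, under which Id3 was still higher and Id1, Id2 and Bambi still lower. The group of 1 library has no spread of its own, and the test takes the spread from the macrophage libraries.

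Id3, which tunes E protein activity in developing T cells, reached 434 TPM from 1138 reads in the library labelled Th1, against 12.8, 12.6 and 11.5 TPM from 436, 437 and 397 reads in the macrophage libraries. The value of the library labelled Th1 lay above all 3 macrophage values, which averaged 12.3 ± 0.69 TPM (SD, n = 3), a 35.4-fold difference in TPM. Its log2 fold change was 5.86 ± 0.08 (SE), with an adjusted p of 1.27e-25 in edgeR's quasi-likelihood test. The median over all genes tested was -5.61, and relative to that median Id3 stood 11.5 higher on the log2 scale, with 494 of the 11447 genes above it. Id3 ranked number 435 by TPM in the library labelled Th1 and 1983 in the macrophage libraries.

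Id2, a gene known for its part in innate lymphoid and dendritic cell development, had 0.55 TPM from 2 reads in the library labelled Th1, against 94.9, 96.0 and 94.9 TPM in the macrophage libraries. Those macrophage values rested on 4622, 4771 and 4679 reads. Scaled by library totals, their level would have given 612 reads at the depth of the library labelled Th1. The ratio in CPM was 0.00327 for Th1 over macrophage, with a 95% exact interval of 0.000396 to 0.0118 that covers counting error only. Its log2 fold change was -6.76 ± 0.30 (SE), with an adjusted p of 4.44e-15 in edgeR's quasi-likelihood test. Relative to the median of all genes this was -1.14, at percentile 42.7 of all genes tested, so Id2 lay near the middle of the comparison.

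Id1 had no read in the library labelled Th1, where the macrophage level would have given 160 reads, and 35.1, 35.7 and 37.5 TPM in the macrophage libraries. With a floor of 3 reads, which covers counting error only, it was at least 53.4-fold lower in the library labelled Th1 in CPM. CPM scales by library totals alone. The main test's TMM scaling factors were 0.4595 for the library labelled Th1 and 1.289 to 1.3 for the macrophage libraries. They would make this bound and the expected reads smaller. The neutrophil marker Ly6g also had no read in the library labelled Th1, where its macrophage level would have given 3160 reads, although S100a8 had 11351. These expected reads already take the smaller depth into account, and what the zeros in that library reflect was not tested. Id4 had 4 reads, 0.32 TPM, in the library labelled Th1 and 0, 1 and 0 reads in the macrophage libraries. That is a CPM ratio of 92.0 with an exact 95% interval of 9.11 to 4530 for counting error only, on too few reads for the filter of the test. In all, Id3 made up 99.5% of the 1144 Id reads of the library labelled Th1 (exact 95% interval 98.9% to 99.8%). In the macrophage libraries Id2 made up 66.3% ± 0.31 of the summed Id TPM, Id1 25.1% ± 0.80 and Id3 8.55% ± 0.50 (SD, n = 3).

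**Figure D4:**
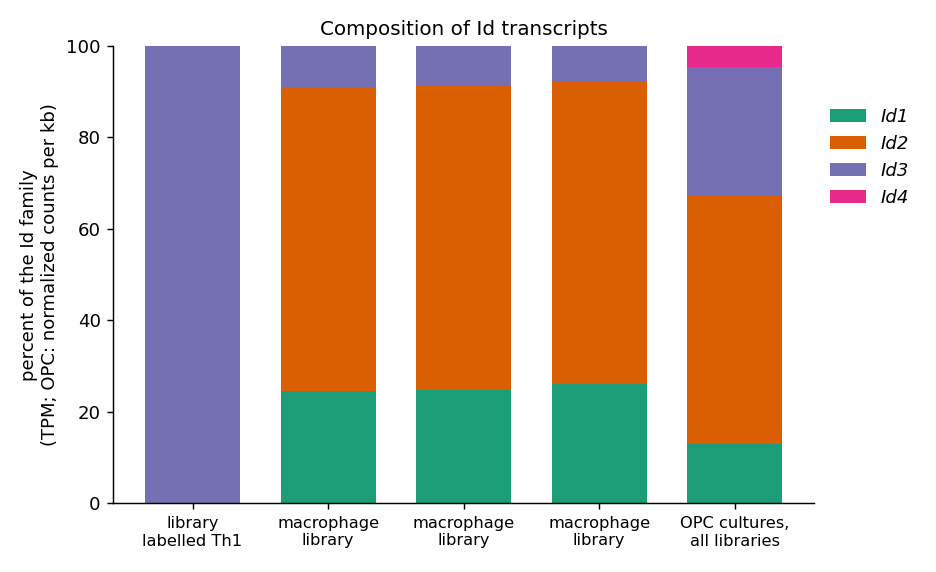
Share of each Id gene in the summed level of the Id family, in percent of TPM for the library labelled Th1 and each macrophage library, and in percent of normalized counts per kilobase for the OPC mean in the authors' deposited table. Id3 fills the bar of the library labelled Th1, while Id2 is the largest share in the macrophage libraries (66.3% ± 0.31) and in the OPC mean (54.6%).

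Id2 thus was the largest Id transcript in both the macrophage libraries and the OPC cultures of the authors' deposited table, with Id1 second in the macrophage libraries and Id3 second in the OPC cultures. The values come from tables normalized separately, so only the order within each was read and the difference between them was not tested.

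Of the feedback inhibitors, Bambi had no read in the library labelled Th1 and 4.19, 4.15 and 3.96 TPM, from 351, 355 and 336 reads, in the macrophage libraries. With the floor of 3 reads it was at least 15.1-fold lower in the library labelled Th1 in CPM, for counting error only. This bound too scales by library totals and would be smaller with the TMM factors. Smad7 had 0.20 TPM from 2 reads in the library labelled Th1, against 0.25, 0.40 and 0.34 TPM in the macrophage libraries. Its log2 fold change of -0.57 ± 0.996 (SE) was not called at an adjusted p of 0.592 in edgeR's quasi-likelihood test, and its sign turned with the scaling, to 0.94 with DESeq2 size factors. Smad6 had no read in the library labelled Th1 and 14, 13 and 10 reads in the macrophage libraries, a level that would give 1.61 reads at the smaller depth, so no difference was detectable. Bambi was thus the one inhibitor with a called difference, and both inhibitory Smads were low throughout.

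Ligand transcripts were scarce in all 4 sorted libraries. Bmp2 had no read in the library labelled Th1 and 2, 3 and 0 reads in the macrophage libraries, Bmp4 had no read against 0, 1 and 0 reads, and Bmp7 had none in any. A count of 0 allows up to 0.983 CPM in the library labelled Th1 and up to 0.127 to 0.130 CPM in the macrophage libraries, so the limit is looser in the library labelled Th1. None of the 12 other BMP-type ligand genes had a read in the library labelled Th1, and none passed the filter of the test.

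**Figure D5:**
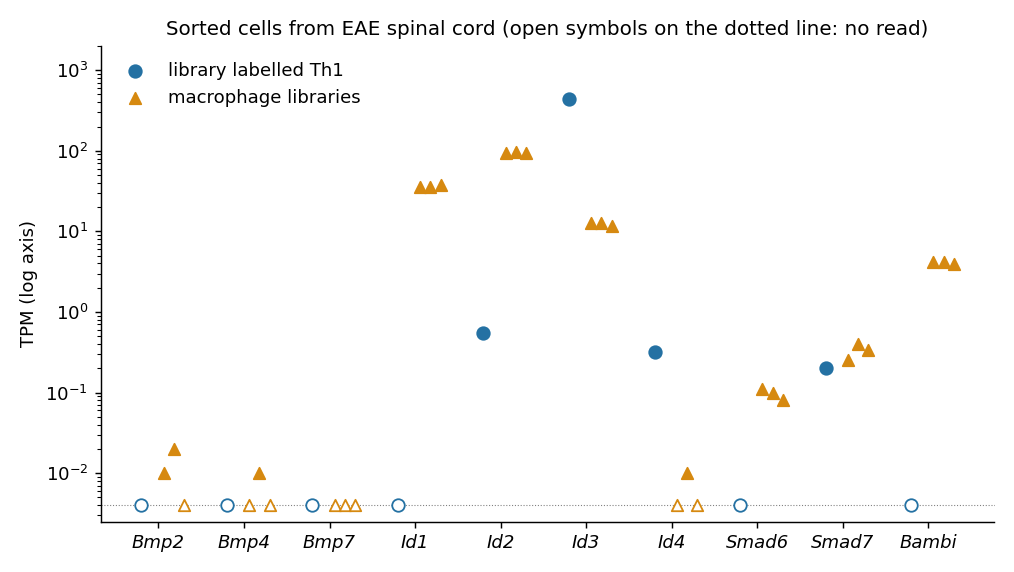
TPM of each gene on a log axis in the library labelled Th1 and in each of the 3 macrophage libraries, with genes without a read drawn at the lower edge. Id3 stands higher in the library labelled Th1 (434 against 11.5 to 12.8 TPM), as does Id4 on 4 reads, and Id1, Id2 and Bambi stand higher in the macrophage libraries.

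Among the 70 other pathway genes 32 were tested in the sorted cells, and edgeR's quasi-likelihood test called 4 higher and 15 lower in the library labelled Th1, 8 of the 15 without a read there. Over all genes tested the shares were 13.7% higher and 54.6% lower, so the counts of this list lie near the background and say nothing particular to the pathway. With DESeq2 size factors the calls were 6 higher and 4 lower, while 47.6% of all genes were called. In the main test the median log2 fold change of the list was -2.58, against -5.61 over all genes. The list thus lay near the background in calls but above it in median, and its calls fell short of the background with DESeq2 size factors. The higher genes were Bmpr2, Tcf12, Fst and Nbl1. Bmpr2, the type II receptor of BMP ligands, had 4.16 TPM from 140 reads in the library labelled Th1, against 0.297 ± 0.021 TPM (SD, n = 3) in the macrophage libraries, with an adjusted p of 5.14e-16 in edgeR's quasi-likelihood test. Tcf12, an E protein that Id proteins bind, had 19.7 TPM from 241 reads in the library labelled Th1, against 0.223 ± 0.050 TPM (SD, n = 3) in the macrophage libraries, with an adjusted p of 3.71e-19 in the same edgeR test. Fst and Nbl1, both secreted antagonists, rested on 7 and 3 reads in the library labelled Th1.

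Acvrl1, a type I receptor for Bmp9 and Bmp10, had 0.09 TPM from 1 read in the library labelled Th1, against 5.73 ± 0.097 TPM (SD, n = 3) in the macrophage libraries, with an adjusted p of 2.65e-08 in edgeR's quasi-likelihood test. Smad4, the shared partner of the receptor-activated Smads, had 0.09 TPM from 2 reads in the library labelled Th1, against 1.22 ± 0.14 TPM (SD, n = 3) in the macrophage libraries. Zeb2, which binds activated Smads and represses transcription, had 0.03 TPM from 1 read in the library labelled Th1, against 2.03 ± 0.13 TPM (SD, n = 3) in the macrophage libraries. Tgfb1, the ligand of the sister TGF-beta arm, had 30.8 TPM from 202 reads in the library labelled Th1, against 18.5 ± 0.70 TPM (SD, n = 3) in the macrophage libraries, which was under the 4-fold minimum.

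The library labelled Th1 differed from the others in how many genes it detected. It had 2827 genes above 3 reads, against 12174 to 12189 in the macrophage libraries, and the 10 genes highest in the macrophage libraries took 5.40% of its TPM, against 49.3% to 49.6% of theirs. Genes that most cells use, listed after values had been seen, went both ways. Gapdh, Ppia, Rplp0 and Hprt were higher in TPM in the library labelled Th1, where Hprt reached 1163 TPM, against 43.9 to 45.3 TPM in the macrophage libraries. Actb, Gusb, Tbp, Polr2a and Sdha were lower in it, with 1 read of Polr2a, 1 of Tbp and none of Sdha, against 5.58 to 5.67 TPM of Sdha in the macrophage libraries. Markers of T cells other than Lck had no read in it. The library also held the neutrophil and macrophage marker transcripts given above. The part of these features in the Id1, Id2, Id3 and Bambi differences was not tested. Id3 rested on 1138 reads, which bears on counting error only.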

How the data were processed

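Trizol extraction and Illumina HiSeq sequencing are given in the labels' protocols, and GRCm38 in the submitters' processing notes. Aligner and counter were not given in the sources used here. Raw files of several OPC samples were later replaced. For the OPC cultures the authors deposited, per the file headers, the mean signal as normalized counts, a log2 fold change with its SE, a test statistic (a score, the log2 fold change over its SE), and a p-value before and after adjustment. Levels per genotype were derived from mean and fold change, and called genes have an adjusted p under 0.05. For the sorted cells the authors deposited TPM and estimated counts for each library, of which 79.8% to 80.26% (macrophage) and 85.62% (Th1) are exactly whole, and 8 columns were not used. Blanks were taken as 0 and counts rounded, then tested with edgeR 4.0.16 (TMM, filterByExpr, quasi-likelihood, Benjamini-Hochberg), with DESeq2 1.42.0 as an alternative, in R 4.3.3 and Python 3.11.15. The script was tested on simulated data, in which all libraries shared the macrophage profile and few genes were changed in the single library. The simulation does not cover a contrast as broad as the real one, in which 68.2% of genes were called. The macrophage column codes appear in no label, so columns were assigned to the group. Macrophage pairs differed beyond sampling noise (chi-square per degree of freedom 1.29 to 2.53, averaged over genes) and were counted separately, which does not show that they came from separate animals. The common coefficient of variation between libraries that edgeR fitted was 0.0224, a small spread on which its SEs and p-values rest. Intervals and the floor of 3 reads cover counting error only, and CPM was scaled by library totals. The members and lists were chosen with earlier results of these data known. Named genes are the members and, of each list, called genes, the 2 with the smallest p and the 2 highest in the macrophage libraries, of which a selection is printed. Gene coordinates come from GENCODE M21.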

Additional observations from a re-analysis of the deposited data

How the results depend on the processing

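In the OPC cultures 2 members were called under each alternative tried (an adjusted p of 0.1, minimum means of 10 or 100 normalized counts, a 1.5-fold minimum), and 1 pathway gene under both tried for that list (an adjusted p of 0.1, a minimum mean of 10), with adjusted p of 0.0319 to 0.0421 for Bmp7, 0.00178 to 0.00243 for Bmp4 and 0.0211 to 0.0268 for Sostdc1 in the authors' deposited table or adjusted again from it. The summed mean per kilobase of the 10 genes moved to 5336 with the longest transcript, against 4346 with the exon union.

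In the sorted cells 4 members were called with each macrophage library left out in turn, and 5 with library totals alone, without the filter or with DESeq2's Wald test, and 4 with DESeq2 size factors. Id3 kept its direction over all settings, with log2 fold changes of 4.37 to 7.38, as did Id2 with -5.24 to -8.24. Id1 and Bambi also kept theirs but varied more in size, with -6.917 to -12.91 and -5.096 to -11.09. Their smallest differences came with DESeq2's Wald test. The Smad7 log2 fold change reversed to 0.94 with DESeq2 size factors and 0.78 with DESeq2's Wald test, and was -2.06 (adjusted p 0.0296 in edgeR) with library totals. The pathway genes called were 10 with DESeq2 size factors (6 higher, 4 lower) and 10 with DESeq2's Wald test (8 higher, 2 lower), against 19 in the main test, and 18 to 18 with each macrophage library left out. The median over all genes was -4.33 with DESeq2 size factors and -6.25 with library totals, against -5.61, and called genes were higher in the library labelled Th1 in 20.1% with TMM, 36.9% with DESeq2 size factors, 11.9% with library totals and 49.9% with DESeq2's Wald test. Without the 10 genes highest in the macrophage libraries, the summed TPM of the members became 460.4 in the library labelled Th1 and 293.2 in the macrophage libraries with SD 1.99, against 435.5 and 148.2, with 148.2 becoming 147.8 to 148.6 with each macrophage library left out. No paired analysis was possible because the OPC table has no value per library and the sorted cell columns carry no shared replicate number. The 1 library labelled Th1 and its depth limit every sorted cell contrast.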
